A study of Mus musculus with 4 samples.

Results

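Most of the genes described here encode receptors and bridging proteins through which phagocytes take up apoptotic cells and modified ligands. Folr2, which encodes a folate receptor, and Cbr2, which encodes a carbonyl reductase, are described below as markers of resident macrophages. The members are the 10 genes Mertk, Axl, Gas6, Stab1, Cd163, Folr2, Msr1, Siglec1, Cd5l and Cbr2, taken by symbol from the deposited gene list, and all 10 were found among its 31053 genes. The cells were live (PI-, without the dead-cell stain propidium iodide) CD45+ leukocytes, sorted from 3 mm excisional skin wounds of 8-week-old male mice. One library was made for each of 4 groups, namely wild-type C57BL6/J (Angptl4+/+) wounds at 1 and at 5 days post-wounding (dpw) and Angptl4-/- wounds at 1 and at 5 dpw. The Angptl4-/- mice lacked the gene in every tissue, so wound cells other than leukocytes lacked it too. The number of animals behind each library is not given in the sources used here.

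Efferocytosis is the clearance of dying cells by phagocytes, and in a healing wound its main cargo is the neutrophils that arrive early. The receptor tyrosine kinases Mertk and Axl, which with Tyro3 form the TAM family, do not touch the dying cell directly. They bind the bridging protein Gas6, which in turn holds on to phosphatidylserine exposed on the dying cell's membrane. Scavenger receptors such as Stab1, Msr1 and Cd163 bind a wider set of ligands, among them modified lipoproteins and hemoglobin-haptoglobin complexes, and several members are also used as markers of tissue-resident macrophages.

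The 4 libraries held 20069 barcodes, of which 19827 passed the filter of at least 200 detected genes and at most 10% mitochondrial UMIs (unique molecular identifiers, 1 per captured transcript). The deposited UMI totals ranged from 26981596 to 32962595 per library, and the median depth from 3735.5 to 4975.5 UMIs per passing cell. Of the barcode sequences, 50 occurred in more than 1 library. Angptl4, the deleted gene, had 47 and 78 UMIs in the Angptl4+/+ libraries of 1 and 5 dpw and 0 in both Angptl4-/- libraries. Clusters were named from marker lists, and macrophage-like cells numbered 1149 and 1540 in the Angptl4+/+ libraries of 1 and 5 dpw and 843 and 639 in the Angptl4-/- ones. All 9 genes of the macrophage list were detected in these cells in every library. A level is a gene's summed UMIs in a class, scaled to 1000000 UMIs (CPM), and the range in parentheses after it is its exact Poisson 95% interval. A ratio of 2 levels is given as its log2 value, followed by the 95% interval of the exact conditional binomial method. With 1 library per group there were no replicates and no test was made, so every interval covers counting error only. Animal and library preparation cannot be told apart from genotype and day. The paper lists different sources for the wild-type and the Angptl4-/- mice, so mouse source and genetic background cannot be told apart from genotype either. The chemistry counts transcript 3′ ends, and levels are compared between cells and never between genes.

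Promoter sequence is shown for the Gas6 and TAM receptor axis (Gas6, Mertk, Axl) and for 3 members of other kinds (Cd5l, Stab1, Cbr2), because these 6 differed in the letters that they held just before the start site. They were chosen after the matches were seen. Each run is the 100 bases upstream of the RefSeq start, 5′ to 3′ on the gene's strand in GRCm38.p6. Capitals mark matches on either strand to GGGCGG (the GC box bound by the Sp1 family), GAGGAA (core letters of sites of the myeloid factor PU.1) or TGCTGA, a further motif searched.
Gas6, chr8:13494536-13494635, minus strand: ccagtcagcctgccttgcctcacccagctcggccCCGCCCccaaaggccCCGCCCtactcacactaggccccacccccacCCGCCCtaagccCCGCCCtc
Mertk, chr2:128698815-128698914, plus strand: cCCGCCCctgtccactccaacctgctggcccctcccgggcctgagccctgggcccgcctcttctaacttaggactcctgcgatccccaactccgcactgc
Axl, chr7:25788734-25788833, minus strand: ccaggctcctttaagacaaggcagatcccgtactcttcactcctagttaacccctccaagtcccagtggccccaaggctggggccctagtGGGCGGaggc
Cd5l, chr3:87357781-87357880, plus strand: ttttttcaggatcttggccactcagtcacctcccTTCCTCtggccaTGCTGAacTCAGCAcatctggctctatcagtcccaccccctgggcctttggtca
Stab1, chr14:31168642-31168741, minus strand: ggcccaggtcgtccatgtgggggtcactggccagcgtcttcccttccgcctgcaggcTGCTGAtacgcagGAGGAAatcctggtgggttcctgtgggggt
Cbr2, chr11:120732022-120732121, minus strand: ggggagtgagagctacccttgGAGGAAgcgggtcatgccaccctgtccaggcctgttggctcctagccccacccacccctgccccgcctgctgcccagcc
RefSeq promoters were matched for 8 of the 10 members, in 9 windows. Msr1 and Siglec1 had no entry. In these 100 bases GGGCGG was present upstream of Gas6, Mertk and Axl and of no other matched member, and 24.7% of all 32817 promoters held it in a window of the same length. GAGGAA was present upstream of Cd5l, Stab1 and Cbr2, against 9.82% of all promoters. TGCTGA was present upstream of Cd5l, Stab1 and 1 of the 2 Folr2 windows, against 6.96% of all promoters. Matches to different motifs did not overlap in the printed runs. Over the 250 bases upstream, Axl also held a GAGGAA match, 130 bases before its start. The share of G and C over 250 bases was 54.8% for Gas6, 63.6% for Mertk and 60% for Axl, and 46.8% for Cd5l, 57.2% for Stab1 and 55.6% for Cbr2, against a median of 52.4% over all promoters. A match describes these letters only and is not evidence of binding.

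Over the 4 libraries together all 10 members had their highest level in macrophage-like cells, but Axl at 1 dpw did not. In that day's libraries Axl stood at 32.1 CPM (23.8 to 42.3) in dendritic cell-like and 17.8 CPM in macrophage-like cells of Angptl4+/+ wounds, and at 29.8 CPM (20.8 to 41.5) and 17.1 CPM in those of Angptl4-/- wounds. The share of a member's UMIs that lay in these cells ran from 80.2% for Axl to 99.6% for Cd5l. Cd163 had 84.5% of its UMIs there and Stab1 89.6%. The classes that held the rest differed from gene to gene. Axl had 13.3% of its UMIs in dendritic cell-like cells. Msr1 had 5.69% of its UMIs in monocyte-like cells, where the libraries of 1 dpw read 110.1 CPM (97.1 to 124) with Angptl4 and 138 CPM (122 to 156) without it. Stab1 had 7.75% of its UMIs in neutrophil-like cells, the most numerous class, at 4.93 to 11.3 CPM. For the other 9 members the neutrophil-like level was at most 2.65 CPM, the value of Msr1, which in macrophage-like cells of that library stood at 394 CPM. The Stab1 reads in neutrophil-like cells were therefore a larger part of the macrophage-like level than those of Msr1, with 4.93 CPM against 104 CPM in the same library. Whether they came from neutrophils or from free RNA was not tested.

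Gas6 (ENSMUSG00000031451, chr8:13465374-13494490, minus strand, GRCm38) encodes the bridging protein. At 1 dpw Gas6 stood at 9.96 CPM (8.0 to 12.3) in the Angptl4+/+ library and 5.52 CPM (3.78 to 7.79) in the Angptl4-/- library, and at 5 dpw it stood at 24.9 CPM (22.3 to 27.8) and 16.6 CPM (13.9 to 19.8). It was higher at 5 than at 1 dpw in both genotypes and lower in the Angptl4-/- than in the Angptl4+/+ library at both days. The counts behind the lowest level were few. In Angptl4-/- wounds at 1 dpw Gas6 had 32 UMIs in 14 cells, and 22 of these UMIs came from 5 cells. In Angptl4+/+ wounds at 1 dpw it had 89 UMIs in 30 cells, and 47 of these came from 5 cells.

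Mertk (ENSMUSG00000014361, chr2:128698956-128802894, plus strand) encodes the receptor that tissue macrophages use for steady clearance of apoptotic cells. At 1 dpw Mertk stood at 23.6 CPM (20.5 to 27) in the Angptl4+/+ library and 25.9 CPM (21.9 to 30.4) in the Angptl4-/- library, and at 5 dpw it stood at 46.4 CPM (42.8 to 50.3) and 33.9 CPM (29.9 to 38.3). The interval of the Angptl4+/+ library at 5 dpw lay above those of the other 3 libraries. Axl (ENSMUSG00000002602, chr7:25757273-25788705, minus strand) encodes the related receptor that is known to be inducible by interferon and other inflammatory signals. At 1 dpw Axl stood at 17.8 CPM (15.1 to 20.8) in the Angptl4+/+ library and 17.1 CPM (13.9 to 20.8) in the Angptl4-/- library, and at 5 dpw it stood at 90 CPM (84.9 to 95.2) and 76.7 CPM (70.7 to 83.2). Both libraries of 5 dpw stood far above both libraries of 1 dpw, with no overlap of intervals. Outside macrophage-like cells the picture was mixed. In monocyte-like cells Axl was also higher at 5 dpw, at 41.1 CPM (31.1 to 53.2) in Angptl4+/+ against 8.57 CPM (5.23 to 13.2) at 1 dpw. In Angptl4-/- cells 16.8 CPM (10.8 to 25) compared with 6.53 CPM (3.37 to 11.4). These 2 intervals overlapped, but the log2 ratio of the 2 days was 1.36 (0.31 to 2.50), an interval above 0. In dendritic cell-like cells the intervals of the 2 days overlapped in each genotype, with 37.5 CPM (31.7 to 44) and 35.2 CPM (28.7 to 42.7) at 5 dpw. Tyro3, the remaining receptor of this family, had 0 UMIs in macrophage-like cells of both libraries of 1 dpw and 1 in each of 5 dpw.

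**Figure D1:**
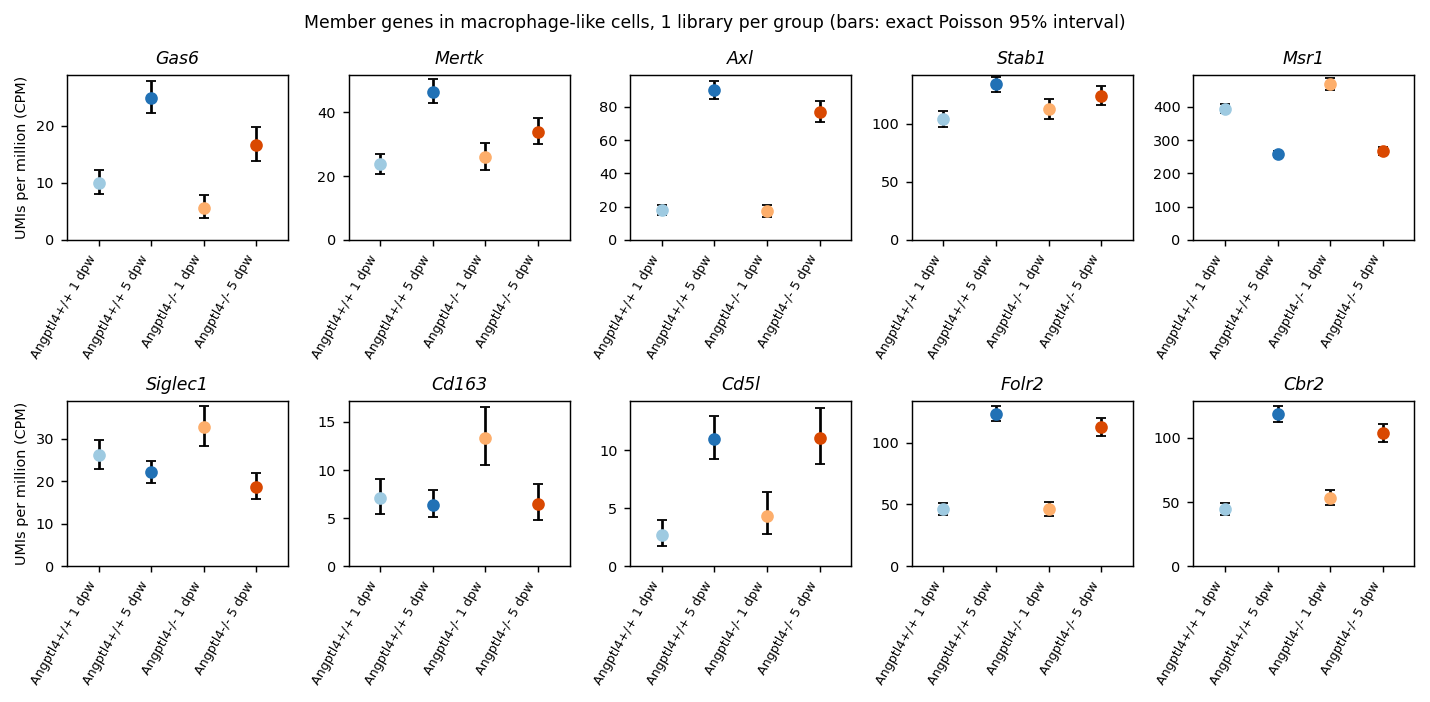
Level of each of the 10 genes in macrophage-like cells, in UMIs per 1000000 (CPM, linear axes from 0, one scale per gene), for the 4 libraries; points are library values and bars exact Poisson 95% intervals, which cover counting error only. Axl, Folr2, Cbr2, Gas6 and Cd5l sat higher at 5 dpw than at 1 dpw in both genotypes, and Msr1 lower, with 394 against 257 CPM in Angptl4+/+ wounds.

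Of the scavenger receptors, Stab1 differed little between libraries and Msr1 was lower at the later day. Stab1 (ENSMUSG00000042286, chr14:31139013-31168641, minus strand) encodes stabilin-1, an endocytic receptor that also binds phosphatidylserine. At 1 dpw Stab1 stood at 104 CPM (97.6 to 111) in the Angptl4+/+ library and 113 CPM (104 to 122) in the Angptl4-/- library, and at 5 dpw it stood at 134 CPM (128 to 141) and 124 CPM (117 to 132). The 4 values spanned a narrow range compared with those of Axl or Gas6. Msr1 (ENSMUSG00000025044, chr8:39581685-39642673, minus strand) encodes the class A scavenger receptor for modified lipoproteins. At 1 dpw Msr1 stood at 394 CPM (381 to 408) in the Angptl4+/+ library and 467 CPM (449.8 to 485) in the Angptl4-/- library, and at 5 dpw it stood at 257 CPM (249 to 266) and 267 CPM (255 to 278). It was lower at 5 than at 1 dpw in both genotypes, the reverse of the TAM receptors.

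Siglec1 (ENSMUSG00000027322, chr2:131069220-131086765, minus strand) encodes sialoadhesin, a receptor for sialylated surfaces that interferon is known to induce. At 1 dpw Siglec1 stood at 26.1 CPM (22.8 to 29.7) in the Angptl4+/+ library and 32.8 CPM (28.3 to 37.8) in the Angptl4-/- library, and at 5 dpw it stood at 22.1 CPM (19.7 to 24.8) and 18.7 CPM (15.8 to 22). The 2 libraries of 1 dpw were the higher ones, and in Angptl4+/+ wounds the intervals of the 2 days overlapped. Cd163 (ENSMUSG00000008845, chr6:124304656-124330527, plus strand) encodes the receptor for hemoglobin bound to haptoglobin. At 1 dpw Cd163 stood at 7.05 CPM (5.42 to 9.02) in the Angptl4+/+ library and 13.3 CPM (10.5 to 16.6) in the Angptl4-/- library, and at 5 dpw it stood at 6.36 CPM (5.07 to 7.88) and 6.49 CPM (4.82 to 8.56). Only the Angptl4-/- library of 1 dpw stood apart. Of its 77 Cd163 UMIs, 62 came from 5 cells and 18 from a single cell. The share of macrophage-like cells with a Cd163 UMI was 1.9% (1.09 to 3.06) there and between 2.44% and 2.97% in the other 3 libraries, so the high level was carried by few cells.

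The remaining members are a secreted scavenger protein and markers of resident macrophages. Cd5l (ENSMUSG00000015854, chr3:87357881-87371073, plus strand) encodes a secreted protein of the scavenger receptor cysteine-rich family, also called AIM. At 1 dpw Cd5l stood at 2.69 CPM (1.72 to 4.0) in the Angptl4+/+ library and 4.31 CPM (2.79 to 6.37) in the Angptl4-/- library, and at 5 dpw it stood at 11 CPM (9.23 to 12.9) and 11 CPM (8.82 to 13.6). It had the fewest UMIs of the 10 genes, 278 over all cells, and in Angptl4-/- wounds at 5 dpw 33 of 85 came from 1 cell. Folr2 (ENSMUSG00000032725, chr7:101839988-101857194, minus strand) encodes folate receptor beta. At 1 dpw Folr2 stood at 46.2 CPM (41.9 to 50.9) in the Angptl4+/+ library and 46.2 CPM (40.9 to 52.1) in the Angptl4-/- library, and at 5 dpw it stood at 123 CPM (117 to 129.5) and 113 CPM (105 to 120.5). Cbr2 (ENSMUSG00000025150, chr11:120729489-120732114, minus strand) encodes a carbonyl reductase. At 1 dpw Cbr2 stood at 44.4 CPM (40.2 to 49) in the Angptl4+/+ library and 53.3 CPM (47.5 to 59.6) in the Angptl4-/- library, and at 5 dpw it stood at 119 CPM (113 to 125) and 104 CPM (96.7 to 111). Folr2 and Cbr2 followed the same order of days, with both libraries of 5 dpw above both of 1 dpw.

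The comparison of 5 with 1 dpw asked how the genes moved as the wound passed from its inflammatory phase. A gene counted as past the threshold if it had at least 100 UMIs over both libraries in macrophage-like cells and a CPM ratio of at least 2-fold. In Angptl4+/+ wounds 5 of the 10 members were higher (Axl, Gas6, Folr2, Cd5l and Cbr2) and 0 lower, while 6.48% of the 8845 genes measured were higher and 4.3% lower by the same rule. The median log2 ratio was 1.15 over the members and 0.15 over all genes measured. In Angptl4-/- wounds 4 members were higher (Axl, Gas6, Folr2 and Cd5l) and 1 lower (Cd163), against 4.5% and 3.66% of 7889 genes. The median was 0.67 over the members and 0.07 over all genes. At a threshold of 1.5-fold, 6 members were higher (Mertk added) and 1 lower (Msr1) in Angptl4+/+ wounds, against 19.7% and 9.66% of all genes. In Angptl4-/- wounds 5 were higher (Cbr2 added) and 3 lower (Cd163, Msr1 and Siglec1), against 14.4% and 10.2%. The members were chosen with earlier results of these data known, so these counts are a description only.

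The ratio of Axl was 2.34 (2.10 to 2.59) in wild-type and 2.17 (1.86 to 2.49) in Angptl4-/- wounds. Folr2 had a ratio of 1.42 (1.26 to 1.58) and 1.29 (1.09 to 1.49), and Gas6 of 1.32 (0.98 to 1.68) and 1.59 (1.02 to 2.20). These 3 genes had intervals that overlapped between the genotypes. For Mertk the ratio was 0.98 (0.75 to 1.21) in Angptl4+/+ wounds, just under the threshold, and 0.39 (0.09 to 0.69) in Angptl4-/- wounds, and the 2 intervals did not overlap. Cbr2 stood at 1.42 (1.26 to 1.58) and 0.96 (0.77 to 1.15), again with no overlap. Cd5l, with few UMIs, was at 2.03 (1.40 to 2.72) and 1.36 (0.70 to 2.06). Among the genes with lower levels at 5 dpw, Msr1 had -0.62 (-0.68 to -0.55) and -0.81 (-0.89 to -0.73), and Siglec1 -0.24 (-0.49 to 0.02) and -0.81 (-1.13 to -0.49). Stab1 was at 0.36 (0.25 to 0.48) and 0.14 (-0.01 to 0.28). The Cd163 ratio was -0.15 (-0.64 to 0.35) in wild-type and -1.03 (-1.58 to -0.50) in Angptl4-/- wounds, and without the weight of the few rich cells, as the mean of the cells' own CPM, it was -0.18 in Angptl4-/- wounds. Whether the day ratios differed between genotypes was not tested, since each genotype had 1 library a day.

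**Figure D2:**
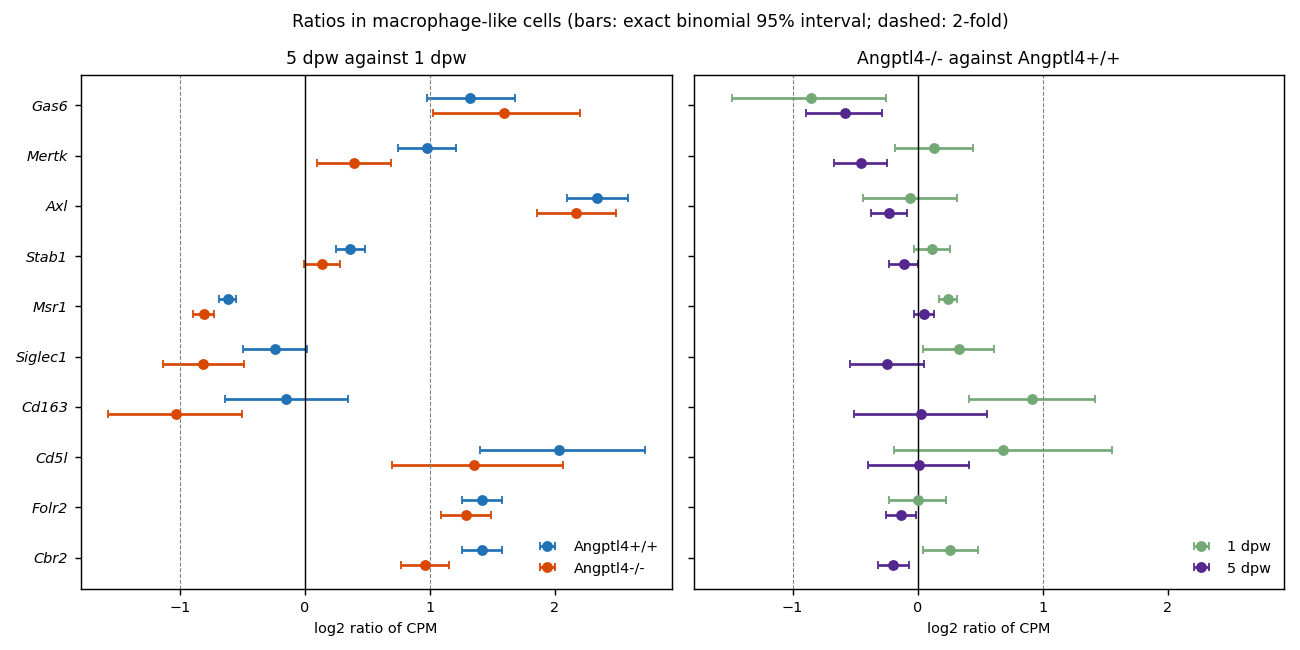
Log2 ratio of CPM in macrophage-like cells for each gene, 5 over 1 dpw in each genotype (left) and Angptl4-/- over Angptl4+/+ at each day (right); points are ratios of 1 library to another, bars exact binomial 95% intervals and dashed lines 2-fold. The day ratios reached 2.34 for Axl in Angptl4+/+ wounds, and the genotype ratios lay between -0.85 (Gas6) and 0.91 (Cd163), both at 1 dpw.

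Markers of other cells in the same macrophage-like cells also differed between the days. The summed level of the 9 neutrophil markers was 11274 and 10264 CPM at 1 dpw and 1804 and 1939 CPM at 5 dpw in Angptl4+/+ and Angptl4-/- wounds, with all 9 detected in each library. Of the 3 platelet markers 2 were detected and Gp9 was at 0, and their sum ran from 10.7 to 308 CPM. The 5 endothelial markers summed to 32.8 to 105 CPM, with Tie1 or Emcn at 0 in every library, and the 6 fibroblast markers to at most 9.09 CPM. The 7 monocyte markers summed to 2448 and 2914 CPM at 1 dpw and 1682 and 1723 CPM at 5 dpw, all 7 detected in each library. The 10 dendritic cell markers summed to 5.71 and 5.52 CPM and to 23.2 and 50.1 CPM, with at least 9 of them detected. Leaving out the sub-cluster of macrophage-like cells led by neutrophil genes moved no ratio of a member by more than 0.14 on the log2 scale and turned none of 39. The depth of the cells also differed, with a median of 6842 and 5894 UMIs at 1 dpw and 8350 and 11592 at 5 dpw. The part of monocyte, dendritic cell, platelet and endothelial RNA and of depth in the day ratios was not tested.

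The comparison of Angptl4-/- with Angptl4+/+ wounds asked whether loss of Angptl4 went with other levels of the genes in the same class of cells. At 1 dpw 0 of the 9 members with at least 100 UMIs passed 2-fold, against 0.729% of 7822 genes, and Cd5l was under the minimum. The median log2 ratio was 0.13 over the members and 0.03 over all genes. At 5 dpw 0 of 10 passed, against 1.15% of 8839 genes, with medians of -0.16 and -0.02. At 1.5-fold, Cd163 was higher and Gas6 lower at 1 dpw, against 1.97% and 1.99% of all genes, and at 5 dpw 0 members passed, against 5.11% of genes either way. Gas6 had the lowest ratio at both days, -0.85 (-1.48 to -0.25) at 1 dpw and -0.58 (-0.89 to -0.28) at 5 dpw. As the mean of the cells' own CPM, the Gas6 ratios were -1.04 and -0.99, and with cells thinned to 1000 UMIs they were -0.01 and -0.50. The lower Gas6 level at 1 dpw was therefore not seen at equal depth per cell, where it rested on 7 and 5 cells with a UMI. At 5 dpw it rested on 31 and 9 cells, and the unthinned share of cells with a Gas6 UMI was 8.44% (7.1 to 9.94) in wild-type and 8.76% (6.69 to 11.2) in Angptl4-/- cells. Mertk was at 0.13 (-0.18 to 0.44) at 1 dpw and at -0.45 (-0.67 to -0.24) at 5 dpw, and its partner receptor Axl at -0.06 (-0.44 to 0.31) and -0.23 (-0.37 to -0.09). Pros1, which encodes protein S, a ligand of Mertk, was higher, with 0.69 (0.24 to 1.15, from 9.18 to 14.8 CPM) at 1 dpw and 0.28 (0.05 to 0.51, from 28.1 to 34.1 CPM) at 5 dpw.

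Among the other members, Cd163 was at 0.91 (0.41 to 1.42) at 1 dpw and 0.03 (-0.51 to 0.55) at 5 dpw. With cells weighted equally its ratio at 1 dpw was 0.26, and with thinned cells -0.20, so the higher level rested on the few rich cells. Msr1 was at 0.24 (0.17 to 0.32) and 0.05 (-0.03 to 0.13), Siglec1 at 0.33 (0.05 to 0.61) and -0.24 (-0.54 to 0.05), and Cbr2 at 0.26 (0.04 to 0.48) and -0.19 (-0.32 to -0.07). Folr2 was at 0.00 (-0.23 to 0.23) at 1 dpw, where no difference was detectable at this depth, and at -0.13 (-0.25 to -0.01) at 5 dpw. Stab1 was at 0.11 (-0.03 to 0.26) and -0.11 (-0.22 to 0.00). Cd5l was at 0.68 (-0.18 to 1.55) and 0.01 (-0.39 to 0.41). No member's genotype ratio reached 1 in size at either day.

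Over all sorted cells together the genotype ratios at 5 dpw looked different. All 10 members were lower in the Angptl4-/- library, from -1.22 (-1.53 to -0.92) for Gas6 and -1.10 (-1.31 to -0.89) for Mertk to -0.52 (-0.59 to -0.44) for Msr1. A ratio over all cells mixes the share of macrophage-like cells with the level inside them. The share of all genes that were lower over all cells is not given here. That all members were lower is therefore not read as particular to them. Macrophage-like cells were 31.1% of the passing cells in Angptl4+/+ and 13.5% in Angptl4-/- wounds at that day. At 1 dpw, when they were 21.5% and 17.6%, the ratios over all cells lay between -1.05 (-1.65 to -0.47) for Gas6 and 0.58 (0.12 to 1.04) for Cd163.

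Macrophage-like, monocyte-like and dendritic cell-like cells were clustered again, without the 10 members among the genes used, into 11 sub-clusters. Sub-cluster 1, led by Selenop, C1qa and C1qc, held most UMIs of 5 members. Its share was 86% for Gas6, 81.6% for Cd5l, 78.1% for Cbr2, 70.7% for Folr2 and 69% for Cd163, while it held 16.6% of the UMIs of all genes in these cells. Mertk (45.6%), Siglec1 (41.1%) and Stab1 (36.6%) were less concentrated there, and Axl (23.2%) and Msr1 (20.9%) were spread over many sub-clusters. These shares depend on the resolution. In coarser sub-clusters (resolution 0.3), the one with the highest C1qa held fewer UMIs in the Angptl4+/+ library of 5 dpw. It held 605 of Folr2, 665 of Cbr2, 36 of Cd5l, 34 of Cd163 and 223 of Gas6. Sub-cluster 1 held 1152, 1186, 108, 58 and 271 in that library.

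At 5 dpw Axl stood at 165 CPM (147 to 184) and 120.3 CPM (101 to 143) in Angptl4+/+ and Angptl4-/- cells of sub-cluster 2, led by Cxcl10 and interferon-induced Ifit genes. In sub-cluster 8, led by Retnla, it stood at 100.4 CPM (84.5 to 118) and 113 CPM (94.5 to 134) at that day. The order of these sub-clusters was clear of the intervals in Angptl4+/+ but not in Angptl4-/- cells. Over the 4 libraries together, in which the sub-clusters held different shares of the days, Siglec1 was nearly as high in sub-cluster 2 (38.6 CPM) as in sub-cluster 1 (42.8 CPM). Mertk was at 65.3 CPM in sub-cluster 1, 40.9 CPM in sub-cluster 2 and 14.1 CPM in sub-cluster 0, which was led by Mmp12, Ptges and Inhba. Msr1 hardly separated sub-clusters 0 to 3, of which sub-cluster 3, led by Dmkn and Vcan, met no class name by the rule although 98.2% of its cells came from the macrophage-like class, at 301 to 400.3 CPM, but was at 108 CPM in monocyte-like sub-cluster 4 and at 63.8 CPM in sub-cluster 8. Gas6 was at 57.2 CPM in sub-cluster 1 and at 0.432 CPM in sub-cluster 0. The ligand was thus read mainly in 1 sub-cluster and its receptor Axl in many.

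**Figure D3:**
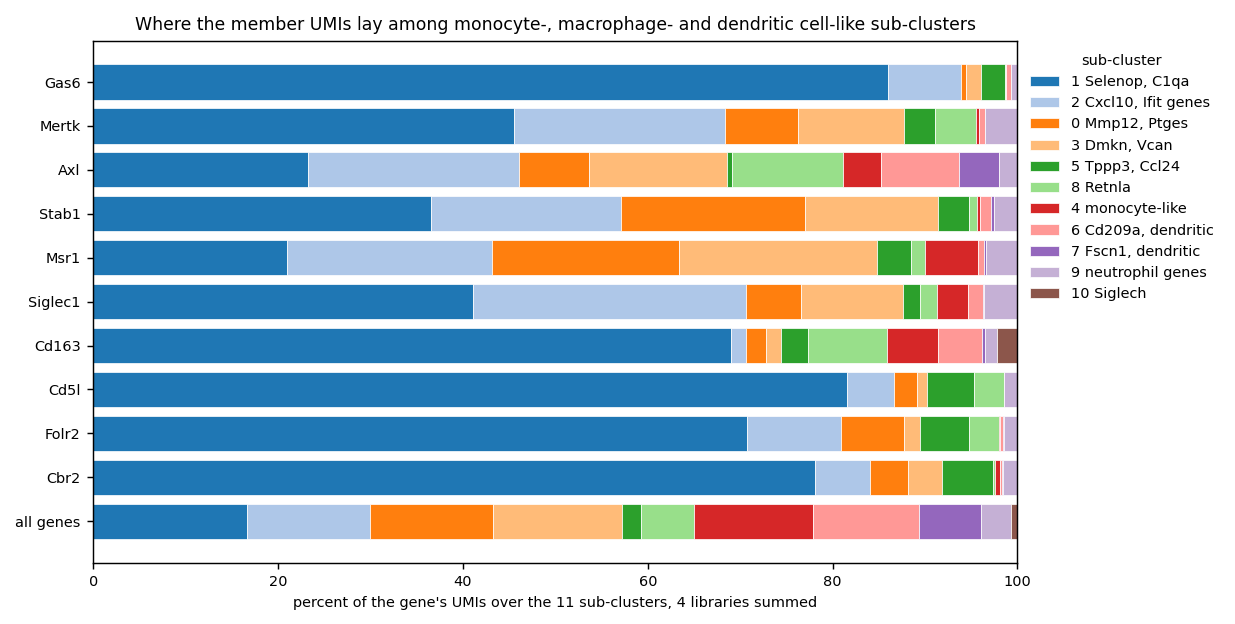
Percent of each gene's UMIs (x axis, 0 to 100) that lay in each of 11 sub-clusters of macrophage-, monocyte- and dendritic cell-like cells, the 4 libraries summed, with all genes together as the lowest bar. Sub-cluster 1 held 86% of Gas6 but 20.9% of Msr1, and 16.6% of all UMIs.

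Sub-cluster 1 also took a larger share of these cells at 5 than at 1 dpw, 23.6% against 12.2% in the Angptl4+/+ libraries and 18.4% against 11.3% in the Angptl4-/- ones. With the proportions of 6 sub-clusters, which together held 95.8% of macrophage-like cells, held equal between libraries, the number of members past 2-fold between the days was 2 in place of 5 in each genotype. In Angptl4+/+ wounds Axl (2.28) and Cd5l (1.19) remained past it, and in Angptl4-/- wounds Axl (2.41) and, downward, Cd163 (-2.02). The Cd163 level at 1 dpw in Angptl4-/- wounds was carried by few cells. Gas6 then had a day ratio of 0.57 and 0.58, Folr2 of 0.86 and 0.88, and Cbr2 of 0.78 and 0.33, in Angptl4+/+ and Angptl4-/- wounds. The share of all genes past 2-fold with proportions held equal is not given here. The fall from 5 to 2 is therefore not read as particular to the members.

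Within single sub-clusters the genes parted in the same way. Axl inside sub-cluster 1 was at 16.2 CPM (9.91 to 25) and 12 CPM (5.77 to 22.1) at 1 dpw and at 88.9 CPM (80.1 to 98.5) and 71.4 CPM (61.3 to 82.8) at 5 dpw. Its day ratio there was 2.46 (1.81 to 3.18) in wild-type and 2.57 (1.66 to 3.66) in Angptl4-/- wounds. In sub-clusters 0, 2 and 3 it was 2.74, 2.58 and 3.06 in wild-type and 3.64, 1.59 and 3.30 in Angptl4-/- wounds, every interval above 0. Monocyte-like sub-cluster 4 had 2.13 (1.35 to 2.97) and 1.31 (0.25 to 2.46). In sub-cluster 8 it was 0.22 (-0.42 to 0.90) in Angptl4+/+ wounds, where 1 dpw rested on 24 UMIs, and 3.53 (1.65 to 6.59) in Angptl4-/- wounds, where it rested on 2. Sub-cluster 6, of dendritic cell-like cells led by Cd209a, went another way, with 0.51 (-0.07 to 1.12) in wild-type and -0.88 (-1.59 to -0.15) in Angptl4-/- wounds. Axl was therefore higher at 5 dpw in each of sub-clusters 0 to 4 in both genotypes, but not in every sub-cluster.

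Folr2 inside sub-cluster 1 had a day ratio of only 0.28 (0.10 to 0.48) and 0.41 (0.16 to 0.66), while in sub-cluster 0, where its level at 1 dpw was 6.22 and 5.72 CPM, it had 2.97 (2.17 to 3.89) and 3.49 (2.29 to 4.98). Cbr2 inside sub-cluster 1 stood at 0.26 (0.07 to 0.44) and -0.16 (-0.37 to 0.06), and in sub-cluster 2 at 2.46 (1.85 to 3.12) and 0.36 (-0.63 to 1.34). Gas6 inside sub-cluster 1 stood at 0.05 (-0.32 to 0.43) and 0.40 (-0.19 to 1.03), with both intervals holding 0. With coarser sub-clusters (resolution 0.3), the one with the highest C1qa held 758 cells, against 943 in sub-cluster 1. It was led by Cxcl10, Ccl12 and Ccl8, with Ifit genes and C1qa further down, and so was another set of cells. The Gas6 ratios there were 0.62 (0.24 to 1.01) and 0.85 (0.22 to 1.53), and both intervals left out 0. Mertk in sub-cluster 1 was at 0.61 (0.22 to 1.02) in wild-type and -0.21 (-0.69 to 0.30) in Angptl4-/- wounds. Cd5l there was at 0.84 (0.11 to 1.65) and 0.26 (-0.44 to 1.01). In the coarser sub-cluster Cd5l was at 0.93 (-0.11 to 2.11) and 1.12 (0.37 to 1.94). The day ratios of Gas6, Folr2, Cbr2 and Cd5l were thus nearer to 0 inside sub-cluster 1 than over the whole class.

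Msr1 was lower at 5 dpw inside each of sub-clusters 0 to 3 in both genotypes, with log2 ratios of -0.39, -0.72, -0.48 and -0.56 in wild-type and -0.43, -1.03, -0.49 and -0.90 in Angptl4-/- wounds, with every interval below 0. Siglec1 inside sub-cluster 1 had -0.86 (-1.26 to -0.45) and -1.29 (-1.78 to -0.80). Cd163 there had -1.50 (-2.08 to -0.92) and -2.53 (-3.14 to -1.94), from 39.7 to 14 CPM and from 86.6 to 15 CPM. These Cd163 ratios rested on few cells. In the Angptl4-/- library of 1 dpw the sub-cluster held 72 Cd163 UMIs, and 5 macrophage-like cells gave 62 of the 77 in that class. In the Angptl4+/+ library of 1 dpw 5 cells gave 29 of 63. Stab1 inside sub-cluster 1 differed little, with -0.14 (-0.34 to 0.07) and -0.22 (-0.49 to 0.06). Over the whole class the Cd163 level of Angptl4+/+ wounds had been nearly the same at both days, so its direction inside the sub-cluster was not visible there.

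**Figure D4:**
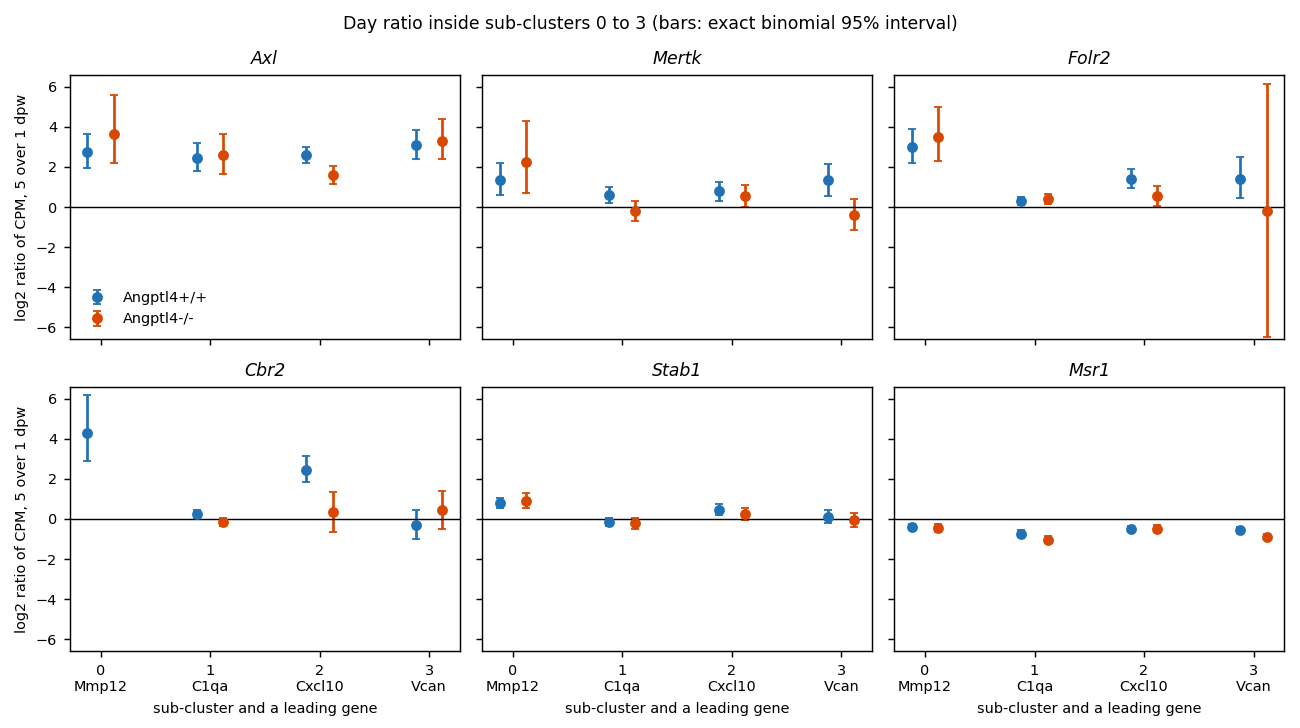
Log2 ratio of CPM, 5 over 1 dpw, for 6 genes inside sub-clusters 0 to 3 (x axis, each with a leading gene; sub-cluster 3 has no class name); blue points are Angptl4+/+ and orange points Angptl4-/- wounds, bars exact binomial 95% intervals. Axl lay above 0 in all 4 sub-clusters in both genotypes and Msr1 below 0, while Folr2 and Cbr2 had their smallest Angptl4+/+ ratios above 0 in sub-cluster 1, 0.28 and 0.26; Cbr2 in Angptl4-/- cells of sub-cluster 0 is not drawn because it had 0 UMIs at 1 dpw.

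Inside sub-cluster 1 the genotype ratio of Gas6 was -0.81 (-1.47 to -0.18) at 1 dpw, from 78 and 30 UMIs in Angptl4+/+ and Angptl4-/- wounds, and -0.46 (-0.79 to -0.15) at 5 dpw, from 271 and 117 UMIs. Cd163 had 1.12 (0.58 to 1.68) at 1 dpw and 0.10 (-0.54 to 0.72) at 5 dpw. Its value at 1 dpw rested on few cells, since 5 cells gave 62 of the 77 Cd163 UMIs in macrophage-like Angptl4-/- cells. Folr2 at 1 dpw had -0.21 (-0.50 to 0.07) and Stab1 -0.21 (-0.50 to 0.09), both with intervals that held 0. Mertk had 0.18 (-0.38 to 0.74) at 1 dpw and -0.63 (-0.94 to -0.33) at 5 dpw, with 79 CPM in Angptl4+/+ and 51.1 CPM in Angptl4-/- cells at 5 dpw. Axl at 5 dpw had -0.32 (-0.58 to -0.05) in sub-cluster 1 and -0.46 (-0.76 to -0.16) in the interferon gene-led sub-cluster 2, but 0.10 (-0.40 to 0.58) in sub-cluster 0. Cbr2 at 5 dpw had -0.08 (-0.22 to 0.06) in sub-cluster 1 and -1.94 (-2.74 to -1.21) in sub-cluster 2, where its 117 UMIs in Angptl4+/+ wounds compared with 18 in Angptl4-/- wounds. Of the members, Gas6 alone was lower in the Angptl4-/- library at both days in sub-cluster 1 with both intervals below 0. Its value at 1 dpw rested on few cells too. In macrophage-like cells of that day 5 cells gave 47 of 89 Gas6 UMIs in Angptl4+/+ and 22 of 32 in Angptl4-/- wounds. Over the whole class the lower level at 1 dpw was not seen at equal depth per cell.

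Cell by cell, most members were sparse. Msr1 had a UMI in 67.1% to 77% of macrophage-like cells of the 4 libraries and in at most 1.25% of neutrophil-like cells, which were taken as the background. After each cell was thinned at random to 1000 UMIs, with shallower cells left out, these shares were 23.4% to 34.4% and at most 0.219%. Axl had a UMI in 7.22% (5.79 to 8.88) and 6.41% (4.85 to 8.28) of macrophage-like cells at 1 dpw and in 30.2% (27.9 to 32.6) and 35.8% (32.1 to 39.7) at 5 dpw, with exact Clopper-Pearson 95% intervals. Thinned, the Axl shares were 1.2% and 1.54% at 1 dpw and 6.8% and 6.17% at 5 dpw, against at most 0.057% of neutrophil-like cells unthinned. The Axl share was thus higher at 5 dpw at equal depth too. For Mertk the thinned shares were 2.39% and 2.43% at 1 dpw and 5.6% and 3.16% at 5 dpw, from unthinned shares of 11.7% (9.94 to 13.8), 11.9% (9.76 to 14.2), 27.5% (25.3 to 29.8) and 23.3% (20.1 to 26.8). Neutrophil-like cells had a Mertk UMI in at most 0.0543%. The median depth of neutrophil-like cells was 3255 to 4743.5 UMIs, below that of macrophage-like cells.

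Stab1 was the one member with a sizeable neutrophil-like share, 2.31% to 3.32% unthinned and 0.602% to 1.01% thinned, against 9.76% to 12.9% of macrophage-like cells thinned. Cd5l and Cd163 were under 1% of macrophage-like cells after thinning in all 4 libraries, and no order was read from these shares. Over the 40 pairs of a member and a comparison, the thinned share went in the direction of the CPM ratio in 29. For the day comparisons it did so in 8 of 10 members in Angptl4+/+ and 9 of 10 in Angptl4-/- wounds. For the genotype comparisons it did so in only 6 of 10 at 1 dpw and 6 of 10 at 5 dpw. A UMI of 3 or more different members was found in 20.8% and 21.6% of macrophage-like cells at 1 dpw and in 47.9% and 45.4% at 5 dpw in Angptl4+/+ and Angptl4-/- wounds. At 1000 UMIs a cell, these shares were 2.03%, 2.30%, 3.93% and 2.69%. The gap between the days was smaller at equal depth. Cells with UMIs of both Axl and Mertk numbered 19 and 13 at 1 dpw and 160 and 64 at 5 dpw in Angptl4+/+ and Angptl4-/- wounds. That was 14.1%, 13%, 37.7% and 43.0% of the Mertk-positive cells. In the same order, 7.22%, 6.41%, 30.2% and 35.8% of all macrophage-like cells had an Axl UMI, so the overlap rose along with the Axl share. These overlaps were not taken at equal depth.

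Across 43 profiles, each 1 sub-cluster in 1 library, the members' levels were compared with each other. The profiles share libraries and depth, and the correlations of log2(CPM + 1) are a description. Mertk and Stab1 were the most alike pair (Pearson r = 0.85), followed by Stab1 and Msr1 (0.85). Axl and Cd163 were the least alike (0.02), and the highest value of Axl with any member was 0.44, with Mertk. Among 9294 genes, the closest to Mertk were Tmem37 (0.92), Snx24 and C1qa, and to Stab1 C3ar1 (0.95), Lgmn and Abca1. Msr1 lay closest to F13a1 (0.97), and Ccl2 was also among its closest genes. Folr2 and Cbr2 had Lgmn, a lysosomal protease gene, as their closest gene (0.88 and 0.87). Siglec1 lay closest to Abcc3 (0.86), Ms4a7 and Sash1, and Cd5l to Calml4 (0.85), Cbr2 and Ap1b1. Axl reached 0.78 with Abhd12, then Cyba, Gas6 0.79 with Osbpl11, then Itga9 and Cbr2, and Cd163 0.77 with Arhgap19, then Sdhc and Wwp1.

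The wider efferocytosis list held 62 other genes, 61 of them in the files, from bridging proteins to phagosome digestion. Between the days in Angptl4+/+ macrophage-like cells 10 of the 53 measured genes were higher by 2-fold and 4 lower, and in Angptl4-/- cells 10 and 2 of 52, with medians of -0.03 and 0.05. Among all genes measured, 6.48% and 4.3% passed in Angptl4+/+ and 4.5% and 3.66% in Angptl4-/- cells. The list was chosen with earlier results of these data known, so the comparison with all genes is a description only. Of the bridging proteins 4 were higher and 2 lower among 8 measured in Angptl4+/+ cells, and 4 higher and 1 lower among 7 in Angptl4-/- cells. C1qa had a log2 ratio of 2.80 (2.73 to 2.87, from 205 to 1429 CPM) in Angptl4+/+ and 1.75 (1.68 to 1.82, from 349.5 to 1179 CPM) in Angptl4-/- wounds, and C1qb and C1qc, the other chains of C1q, were also higher. Pros1 had 1.62 (1.27 to 1.98, from 9.18 to 28.1 CPM) and 1.20 (0.85 to 1.57, from 14.8 to 34.1 CPM). Thbs1, which encodes the bridging protein thrombospondin-1, went the other way with -2.19 (-2.21 to -2.16, from 6111 to 1339.8 CPM) and -1.38 (-1.40 to -1.35, from 5758 to 2218 CPM). Cx3cr1, the receptor for the find-me signal fractalkine, had 3.45 (3.22 to 3.69, from 17.7 to 194 CPM) and 2.98 (2.67 to 3.31, from 15.4 to 121 CPM), and Pparg, a nuclear receptor of lipid handling, 2.76 (2.17 to 3.42, from 2.8 to 19 CPM) and 2.64 (2.02 to 3.34, from 3.97 to 24.8 CPM). Cd93, another receptor for apoptotic cells, was lower, with -1.71 (-1.78 to -1.64, from 560.2 to 171 CPM) and -1.19 (-1.28 to -1.10, from 475 to 208 CPM). Trem2, a lipid-sensing receptor of the same list, was higher, with 1.07 (0.99 to 1.16, from 179 to 377 CPM) and 1.24 (1.09 to 1.39, from 82.8 to 195 CPM). None of the 6 phagosome digestion genes and neither of the restraint signals Sirpa and Cd47 passed 2-fold between the days.

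Between the genotypes 0.729% of all genes passed 2-fold at 1 dpw and 1.15% at 5 dpw. Of the wider list, at 1 dpw 0 of 49 measured genes were higher and 1 lower, Trem2, with -1.11 (-1.26 to -0.96, from 179 to 82.8 CPM). At 5 dpw 1 of 54 was higher, the scavenger receptor gene Colec12 with 2.12 (1.65 to 2.61, from 4.06 to 17.7 CPM), and 1 lower, S1pr1 with -1.09 (-1.43 to -0.76, from 27.4 to 12.9 CPM), while Trem2 was at -0.95 (-1.03 to -0.86, from 377 to 195 CPM). The medians of the list were -0.01 at both days.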

How the data were processed

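Single-cell RNA sequencing was run on sorted live CD45+ cells in 4 libraries, 1 per genotype and day. Reads had been mapped to mm10 by the authors (Cell Ranger 3.1.0), and the raw UMI counts per gene and barcode were used as deposited, while the submitters' processing notes also name Seurat (3.0). No column of the files was left unused as another series' sample (0 such columns).

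Barcodes with at least 200 genes and at most 10% mitochondrial UMIs were kept, and 242 were left out. Libraries were joined with Seurat (5.3.0) anchors in R (4.3.3) on 2000 variable genes and 30 dimensions without the members, and clustered at Louvain resolution 0.5. Clusters took a class name from marker lists where at least 3 markers were seen and the leading genes did not go against it. A cluster of 1156 cells stayed unnamed, since the neutrophil list scored highest but mast cell genes led it. By 3 mast cell markers, only 1 mast cell was counted in it. The cluster held 3.91% to 8.95% of the passing cells of a library, which the neutrophil-like class therefore lacks if they were neutrophils. Under a stricter filter (at least 500 genes, at most 5% mitochondrial UMIs) a cluster led by Acot1, Clec4n and Egr3, also leading genes here, was named neutrophil. Monocyte-, macrophage- and dendritic cell-like cells were clustered again on 20 dimensions. Doublets were scored with scanpy (1.11.5), which marked 789 cells, and kept.

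UMI counts were summed per class and library. Intervals were computed with scipy (1.17.1) in Python (3.11.15), and the ratio intervals were tried on simulated counts. These were drawn independently, as the intervals assume, so the simulation could not show the effect of UMIs that share a cell. Depth was 26981596 to 32962595 UMIs per library, which limits members such as Cd5l, with 278 UMIs over all cells. Where a group had 0 counts, no ratio is given, and limits use a floor of 3 counts.

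No replicates were available, so no test was run. Genes were called at 2-fold with at least 100 UMIs over the libraries compared. The text names all members, at most 8 genes of the wider list per comparison past that threshold, and the 3 genes most like each member by Pearson r over profiles of at least 50000 UMIs, apart from 2 genes that are not reported here. Pros1, Cd93 and Trem2 were also given in comparisons where that rule did not name them, after their values were seen. The members and lists were chosen with earlier results of these data known. Alternatives in filter, integration, resolution, doublets, scaling (edgeR 4.0.16 TMM), thinning, sub-cluster proportions, threshold and class were run. Positions are from GENCODE vM21 (GRCm38), and promoters from RefSeq.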

Additional observations from a re-analysis of the deposited data

Results flagged for a closer look

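Cbr2 in macrophage-like cells was higher in the Angptl4-/- than in the Angptl4+/+ library at 1 dpw and lower at 5 dpw, with log2 ratios of 0.26 (0.04 to 0.48) and -0.19 (-0.32 to -0.07), and both counting intervals left out 0. It was listed because the genotype ratio changed sign between the days. The difference was not tested, since each group had 1 library. Both ratios were small beside the day ratios of Cbr2, 1.42 and 0.96. Inside the C1qa-led sub-cluster 1 the ratios were 0.34 (0.09 to 0.58) at 1 dpw and -0.08 (-0.22 to 0.06) at 5 dpw, and in the Angptl4-/- library of 1 dpw 100 of 309 Cbr2 UMIs came from 5 cells. The higher level at 1 dpw was not stable. It was 0.02 (-0.23 to 0.28) in the coarser sub-cluster with the highest C1qa. With monocyte-like cells added to the macrophage-like class it was 0.19 (-0.03 to 0.41). The thinned share of cells with a Cbr2 UMI went the other way at 1 dpw.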

How the results depend on the processing

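No paired analysis was possible because each group had 1 library, so no replicate numbers were shared and no replicate could be left out. All 10 members stayed highest in macrophage-like cells, over the 4 libraries together, without integration and at Louvain resolution 1.0. For single ratios in macrophage-like cells, 439 of 507 values under the alternatives lay within the counting interval and 68 outside it, 22 of these with cells thinned to 1000 UMIs, 18 as the mean of the cells' own CPM and 18 with sub-cluster proportions held equal, and no ratio past 2-fold changed sign. Counts of members past 2-fold moved as follows, and apart from the 1.5-fold calls no share of all genes is given for these settings. For genotype at 1 dpw, 0 became 1 as the mean of the cells' own CPM, which was Gas6, and 2 with 1.5-fold calls (Cd163 higher, Gas6 lower). For genotype at 5 dpw, 0 became 1 with thinned cells, which was Cd163 at -2.75. That value rested on very few cells. A thinned Cd163 UMI was seen in 0.158% of 632 Angptl4-/- and 0.733% of 1500 Angptl4+/+ macrophage-like cells. For day in Angptl4+/+ wounds, 5 became 2 with sub-cluster proportions held equal. For day in Angptl4-/- wounds, 5 became 2 with sub-cluster proportions held equal, 2 as the mean of the cells' own CPM and 8 with 1.5-fold calls. Leaving out the sub-cluster led by neutrophil genes or the shallow sub-cluster 5, both chosen after seeing the data, moved no count past 1.5 times. With sub-clusters at resolution 0.3, 34 of 37 ratios in the sub-cluster with the highest C1qa kept their sign and 26 lay within the interval, with a largest shift of 1.41 (Axl by day in Angptl4-/- wounds, 2.57 and then 1.16 (0.75 to 1.59)). That sub-cluster was led by Cxcl10 and held 758 cells in place of 943, so the ratios compare different sets of cells. Depth limits Cd5l, Cd163 and Gas6 most, whose UMIs at 1 dpw came from 10 to 30 macrophage-like cells per library. The counting intervals take UMIs as independent, which UMIs of the same cell are not, so they are too narrow for these genes. The same limit holds for the other members.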
